A study of Mus musculus with 6 samples.

Results

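A set of 8 brain-expressed genes, Foxo6, Igsf21, Jph3, Ly6h, Icam5, Islr2, Map3k10 and Ttc9b, is described here in cultured mouse hippocampal neurons given forskolin. They were chosen by symbol, 8 of the 37411 gene rows of the deposited count table, because every forskolin library held less of them than every DMSO library. All 8 passed the filter on low counts that left 16233 genes. Since the choice used the contrast of forskolin with DMSO, their differences in that contrast are given as a description, with no test.

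The cultures were hippocampal neurons of CD-1 IGS mice, plated from pups at postnatal day 0 and kept to day 16 in vitro, with no genetic change named. DMSO, the solvent, was given to 3 of them (libraries 1, 2 and 3), and 50 µM forskolin in an equal volume for 30 min to the other 3 (libraries 4, 5 and 6). Forskolin is a plant diterpene that switches on adenylyl cyclase, the enzyme that makes cyclic AMP (cAMP). The labels give no batch, no sex of the pups and no link between a DMSO culture and a forskolin culture, and they do not say whether the cultures came from separate litters, so the spread between libraries may be partly technical.

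In neurons, cAMP activates protein kinase A, which phosphorylates CREB, a transcription factor that binds the cAMP response element in promoters. The best known outcome within minutes is the induction of early response genes such as Fos. Foxo6 is a forkhead transcription factor of the FOXO class found mainly in the brain. Icam5 (telencephalin), Igsf21 and Islr2 (LINX) are membrane proteins with immunoglobulin domains: the first is a dendritic adhesion molecule of telencephalic neurons, the second an adhesion protein at inhibitory synapses that binds neurexin 2, and the third a leucine-rich repeat protein that acts with TrkA and RET in axon growth. Jph3 (junctophilin 3) tethers the endoplasmic reticulum to the plasma membrane, Ly6h is a lipid-anchored modulator of nicotinic acetylcholine receptors, and Map3k10 (MLK2) is a kinase at the head of the JNK cascade. Ttc9b encodes a tetratricopeptide repeat protein.

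All 8 are protein-coding genes, and their positions are those of GENCODE M21 on GRCm38, the build named in the submitters' processing notes. Foxo6 (ENSMUSG00000052135.8) lies at chr4:120267079-120287349 and Igsf21 at chr4:140026846-140246784, both on the minus strand. Jph3 lies at chr8:121729623-121794276 on the plus strand and Ly6h at chr15:75551268-75567255 on the minus strand. Icam5 lies at chr9:21032073-21039036 on the plus strand and Islr2 at chr9:58196297-58204319 on the minus strand. Map3k10, at chr7:27656375-27674598 on the minus strand, and Ttc9b, at chr7:27653915-27657346 on the plus strand, converge and overlap by 972 bases at their ends. Annotated Islr, the nearest relative of Islr2, shares 8010 bases of the same strand with it. Whether counting used strand is not given in the sources used here, so reads from these overlaps may have been split between neighbours.

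All 8 were rich in G and C over the coding sequence. The G+C share of the longest coding sequence was 72.3% for Foxo6, 66.5% for Ttc9b, 63.9% for Map3k10, 63.6% for Jph3, 63.5% for Icam5, 62.7% for Ly6h, 61.8% for Islr2 and 61.0% for Igsf21, against a median of 53.3% over 13795 tested protein-coding genes, of which 10% lay above 60.9%. Over the longest annotated transcript the share ran from 59.3% (Islr2) to 69.1% (Foxo6) in 7 of the 8. The longest annotated transcript of Ly6h, with 11 exons, held 53.1% G+C, a value that 66.6% of tested protein-coding genes fell below, whereas the Ly6h transcript with the longest coding sequence held 64.8%. To show what this composition looks like, the 60 bases with the highest G+C share within a coding exon are printed for each gene from the GENCODE M21 transcripts on GRCm38, 5′ to 3′ in the sense direction, with every CG dinucleotide in capitals. The last lines give the same for Shisa4 and Igfbp2, a pair of GC-rich genes whose group means differed little between DMSO and forskolin, described further on.
Foxo6 (chr4:120268377-120268436, minus strand): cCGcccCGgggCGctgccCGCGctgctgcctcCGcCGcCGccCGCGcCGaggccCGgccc
Igsf21 (chr4:140034600-140034659, minus strand): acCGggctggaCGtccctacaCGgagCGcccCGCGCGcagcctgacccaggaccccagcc
Jph3 (chr8:121753103-121753162, plus strand): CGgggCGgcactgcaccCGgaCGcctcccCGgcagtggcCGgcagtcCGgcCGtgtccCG
Ly6h (chr15:75565129-75565188, minus strand): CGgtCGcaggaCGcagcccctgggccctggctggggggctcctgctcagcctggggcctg
Icam5 (chr9:21038650-21038709, plus strand): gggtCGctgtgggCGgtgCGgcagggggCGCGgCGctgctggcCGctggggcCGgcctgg
Islr2 (chr9:58199289-58199348, minus strand): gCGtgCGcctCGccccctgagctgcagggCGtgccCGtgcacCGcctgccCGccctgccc
Map3k10 (chr7:27658184-27658243, minus strand): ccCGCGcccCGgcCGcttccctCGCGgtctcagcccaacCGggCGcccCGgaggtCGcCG
Ttc9b (chr7:27653962-27654021, plus strand): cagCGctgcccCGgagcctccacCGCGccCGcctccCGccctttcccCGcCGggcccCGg
Shisa4 (chr1:135374900-135374959, minus strand): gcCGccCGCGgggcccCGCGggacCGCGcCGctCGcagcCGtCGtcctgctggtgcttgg
Igfbp2 (chr1:72824648-72824707, plus strand): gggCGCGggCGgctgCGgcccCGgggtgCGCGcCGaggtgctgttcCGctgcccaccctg

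The Foxo6 stretch held 55 G or C of 60 bases (91.7%), a share that 1.40% of 13803 tested genes reached anywhere in a coding exon. The stretches of Icam5 and Ttc9b held 85.0%, that of Map3k10 83.3%, those of Jph3 and Islr2 81.7%, that of Ly6h 78.3% and that of Igsf21 76.7%; the median gene reached 70%. The stretches of Shisa4 and Igfbp2 reached 83.3% each, as high as that of Map3k10. Those of Gprc5b and Hspg2, further genes of that kind whose stretches are not printed, reached 78.3% and 76.7%, as high as those of Ly6h and Igsf21. The number of CG dinucleotides ranged from 3 in Ly6h to 12 in Foxo6. Length did not set the 8 genes at one end of the range. Their longest transcripts ran from 1979 bases (Igsf21) to 4303 bases (Islr2), where 10% of tested protein-coding genes lay under 1496 bases and 10% above 6993 bases, and gene spans ran from 3432 bases (Ttc9b) to 219939 bases (Igsf21).

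Total counts ranged from 28342764 to 47548379 per library. Levels are in CPM, a gene's count relative to the size of its library, with that size scaled by a TMM factor, a method that assumes that most genes do not differ. Fos, an early response gene, had 101 to 186 CPM in the DMSO libraries and 448 to 902 CPM in the forskolin libraries (edgeR quasi-likelihood log2 fold change 2.46 ± 0.36 (SE), Benjamini-Hochberg adjusted p = 0.0375). Libraries 4 and 5 stood apart from library 6 in cell type markers. The summed level of 11 tested of 12 microglia markers was 176 and 330 CPM in libraries 4 and 5, and 8.63 CPM in library 6, against 6.65 to 12.8 CPM in the DMSO libraries. That of 14 of 14 neuron markers was 3304 and 3539 CPM in libraries 4 and 5 and 5450 CPM in library 6, against 4447 to 5669 CPM in the DMSO libraries. The 12 astrocyte markers summed to 8652 to 9578 CPM in all 6 libraries, so the cultures held glia as well as neurons, and the 12 markers of the oligodendrocyte lineage to 765 to 1685 CPM. No listed marker was at 0 in any library. In such bulk RNA, fewer neurons and less RNA per neuron cannot be told apart.

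All 8 genes lay lower in every forskolin library than in every DMSO library, with forskolin means at 28.9% to 44.5% of the DMSO means. This order is how they were chosen, and 16.2% of all tested genes had it, while 10.3% had the reverse order. Foxo6, the transcription factor, differed most. DMSO libraries 1 to 3 held 31.5, 29.4 and 28.8 CPM of it, and forskolin libraries 4 to 6 held 8.13, 8.64 and 9.17 CPM. The forskolin mean (8.65 ± 0.516 CPM, SD, n = 3) was 28.9% of the DMSO mean (29.9 ± 1.42 CPM), with a log2 fold change of -1.79 ± 0.12 (SE, from the edgeR fit). The libraries within a group were close, and library 6, which lacked the shift in markers of libraries 4 and 5, was the highest of the forskolin libraries for this gene.

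Among the adhesion and guidance genes, Igsf21 had 40.1, 49.4 and 42.7 CPM with DMSO and 16.6, 16.3 and 15.4 CPM with forskolin, a log2 fold change of -1.45 ± 0.12 (SE; libraries in number order here and below). Icam5 had 193, 194 and 165 CPM with DMSO and 75.8, 70.1 and 63.1 CPM with forskolin (-1.40 ± 0.13). Islr2 had 132, 143 and 123 CPM with DMSO and 56.0, 61.9 and 59.5 CPM with forskolin (-1.17 ± 0.11). For Igsf21 and Icam5 library 6 was the lowest of all, and for Islr2 it lay between libraries 4 and 5. The highest forskolin library of Islr2 was at 50.2% of its lowest DMSO library.

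The membrane and signalling genes had the same order of groups. Jph3 had 138, 139 and 133 CPM with DMSO and 58.6, 60.3 and 51.3 CPM with forskolin (log2 fold change -1.27 ± 0.11 (SE)). Ly6h, the most abundant of the 8, had 199, 217 and 182 CPM with DMSO and 81.9, 72.6 and 69.5 CPM with forskolin (-1.42 ± 0.12). Library 6 was the lowest for both. Map3k10, the JNK pathway kinase, had 109, 117 and 102 CPM with DMSO and 49.9, 50.6 and 44.6 CPM with forskolin (-1.18 ± 0.11). Its convergent neighbour Ttc9b had 37.2, 44.1 and 35.7 CPM with DMSO and 16.1, 15.2 and 15.7 CPM with forskolin (-1.32 ± 0.12).

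**Figure D1:**
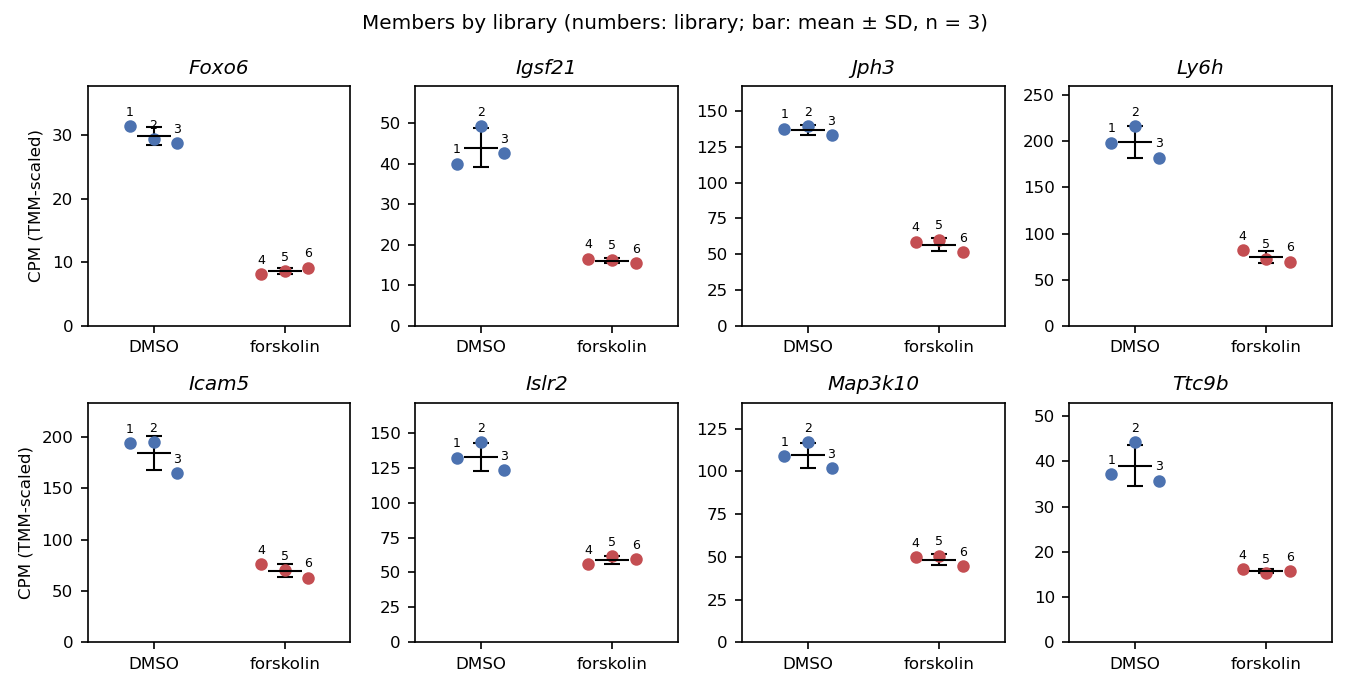
CPM of each of the 8 genes by group, with 1 point per library (numbered 1 to 6) and the mean ± SD of the 3 libraries of a group as the bar. In every panel the 3 forskolin points lie below the 3 DMSO points; the vertical axes start at 0 and differ in range.

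The spread within a group was small beside these gaps. The coefficient of variation over the 3 DMSO libraries ran from 2.36% (Jph3) to 11.5% (Ttc9b), and over the 3 forskolin libraries from 2.87% (Ttc9b) to 9.14% (Icam5). The lowest count of any of the 8 genes in a library was 294, for Foxo6 in library 5. For the genes with the fewest counts (Foxo6, Igsf21 and Ttc9b) counting error alone is about as large as the spread over the forskolin libraries. Across the 6 libraries each gene's log2 CPM had a Pearson correlation with the mean of the other 7 of 0.989 (Foxo6) to 0.998 (Map3k10), a description over 6 libraries that share the group difference by which the genes were picked.

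Levels were ordered per kilobase of the transcript with the longest coding sequence. In the DMSO libraries Ly6h came first with 149 ± 12.9 CPM per kilobase (SD, n = 3), then Icam5 with 62.5 ± 5.75 and Jph3 with 37.6 ± 0.887. Islr2 (32.2 ± 2.40) and Map3k10 (32.1 ± 2.20) overlapped in range, as did Igsf21 (22.2 ± 2.42) and Ttc9b (19.0 ± 2.19). Foxo6 was lowest with 11.4 ± 0.543 CPM per kilobase. With forskolin the order of the means was unchanged, from 55.9 ± 4.82 CPM per kilobase for Ly6h to 3.31 ± 0.198 for Foxo6, and Igsf21 (7.80 to 8.40) and Ttc9b (7.42 to 7.86) still overlapped. So did Jph3 (14.1 to 16.6), Islr2 (13.6 to 15) and Map3k10 (13.1 to 14.9).

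The differences of these genes lay on top of a relation with GC content that ran through the whole table. Across tested protein-coding genes the median log2 fold change was 0.50 for the 777 genes with at most 40% G+C in the longest transcript, 0.05 for the 3578 genes between 45 and 50%, -0.30 for the 2588 genes between 55 and 60%, -0.59 for the 587 genes between 60 and 65%, and -0.84 for the 70 genes above 65%. Among the 10% of protein-coding genes highest in G+C, 56.9% were lower in every forskolin library than in every DMSO library, and 11.7% were called lower by edgeR. Beside them, the 8 genes lay below the median of their own GC range. For Ly6h that range depends on the transcript: the median was -0.10 at the 53.1% of its longest transcript, and -0.59 at the 64.8% of the transcript with its longest coding sequence.

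**Figure D2:**
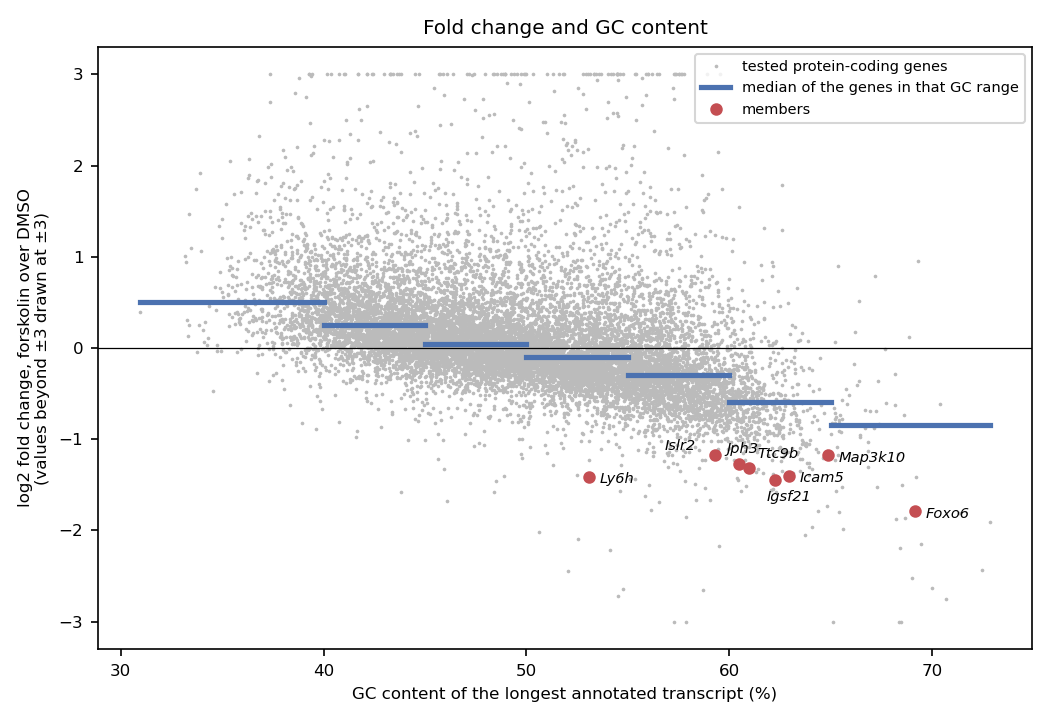
Log2 fold change of forskolin over DMSO (vertical axis; values beyond 3 in either direction drawn at 3) against the G+C share of the longest transcript (horizontal axis, %) for tested protein-coding genes in grey, with the median of each GC range in blue and the 8 genes in red. The blue medians step down from 0.50 to -0.84, and all 8 red points lie below them.

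Each gene was then set beside the tested protein-coding genes within 2 percentage points of its transcript G+C and within 1.5-fold of its DMSO mean CPM. Of 87 such genes for Igsf21, none was lower than Igsf21 in log2 fold change; their median was -0.66 (quartiles -0.94 and -0.50) against -1.45. The same held for Jph3 beside 105 genes (median -0.64), Ly6h beside 194 (median -0.26) and Icam5 beside 29 (median -0.76). For Islr2, 1 of 153 genes was lower (median -0.58), and for Ttc9b 1 of 148 (median -0.58). Map3k10 and Foxo6, the genes richest in G+C, stood less far out: 4 of 14 genes were lower than Map3k10 (median -0.86), and 2 of 4 were lower than Foxo6, whose like genes had a median of -1.97. The 8 genes were picked for being low, so their place at the bottom is a description. When genes were matched on the coding sequence instead, Foxo6 had 20 like genes with a median of -0.46, of which 1 was lower, while the median of the like genes of Ly6h went to -0.66 (61 genes, none lower). Igsf21, Jph3 and Icam5 then no longer lay under every like gene: 1 of 353, 2 of 65 and 1 of 55 were lower.

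Genes of this composition that differed little were few. Of the 567 like genes, each counted once, 36 had a log2 fold change within 0.1 of 0, whereas 3027 of all 16233 tested genes did; 530 of the 567 were negative, with a median of -0.47 against 0.02 over all tested genes. Foxo6 and Map3k10 had no such unchanged gene, Icam5 had 1, Igsf21 and Jph3 had 2 each, Islr2 had 4, Ttc9b 5 and Ly6h 26. The nearest unchanged gene was Shisa4 for both Jph3 and Islr2, Igfbp2 for Icam5, Hspg2 for both Igsf21 and Ttc9b, and Gprc5b for Ly6h. Shisa4 (59.1% G+C) had 113, 120 and 105 CPM with DMSO and 126, 124 and 93.0 CPM with forskolin. Gprc5b (53.1% G+C), an orphan receptor gene, had 225, 214 and 183 CPM with DMSO and 252, 224 and 177 CPM with forskolin. Igfbp2 (62.1% G+C), a secreted binder of insulin-like growth factors, had 335, 205 and 195 CPM with DMSO and 335, 335 and 96.0 CPM with forskolin. Hspg2 (60.9% G+C), which encodes the basement membrane proteoglycan perlecan, had 70.3, 38.2 and 31.2 CPM with DMSO and 63.8, 53.1 and 14.6 CPM with forskolin. Their similar group means thus covered libraries that differed: in each of the 4 genes library 6 lay below every DMSO library, and libraries 4 and 5 lay above library 3.

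**Figure D3:**
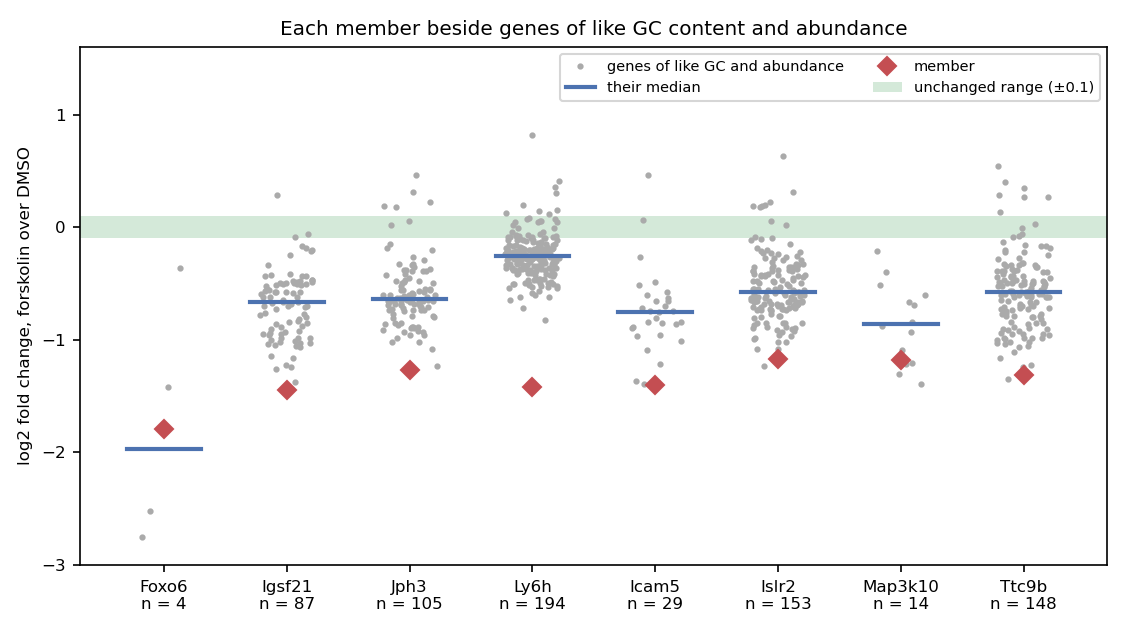
Log2 fold change of each of the 8 genes (red diamond) beside the genes of like GC content and abundance (grey points, their number under each name), with their median in blue and the range within 0.1 of 0 shaded green. Few grey points reach the green band, and the diamonds of Igsf21, Jph3, Ly6h and Icam5 lie under every grey point of their column.

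The GC trend was also removed from each library, by fitting the deviation of log2 CPM from the gene's mean on transcript G+C. All 8 genes still lay lower in every forskolin library than in every DMSO library, an order that 8.38% of tested genes then had. The median log2 fold change of the 8 moved from -1.36 to -0.74, and single values ran from -1.28 (Ly6h) to -0.38 (Map3k10). Foxo6 went from -1.79 to -0.68. The Ly6h value rests on its long, less GC-rich transcript: with the G+C of the coding sequence as the basis, a choice made after seeing the data, Ly6h went to -0.94, and the 8 genes ran from -1.05 (Igsf21) to -0.65 (Map3k10).

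The correction altered how the forskolin libraries ranked. As log2 ratios to the DMSO mean, the median of the 8 genes was -1.27, -1.37 and -1.46 in libraries 4, 5 and 6 before it, and -0.91, -0.83 and -0.55 after it. Library 6 thus went from the lowest to the highest median of the 3. Foxo6 had -1.15, -0.85 and -0.18 after the correction, Map3k10 -0.59, -0.42 and -0.16, and Ly6h -1.18, -1.31 and -1.35. The median of the neuron markers, as log2 ratios on the same corrected scale, was -0.75, -0.74 and 0.17 in libraries 4, 5 and 6. In library 6, then, 8 of 8 genes lay under the DMSO libraries on that scale, while the neuron marker median lay above the DMSO mean. The gap to the lowest DMSO library differed by gene. It was small for Foxo6 (-0.18 against -0.14 in library 2) and Map3k10 (-0.16 against -0.05 in library 1). For Ly6h it was wide (-1.35 against -0.08 in library 3). Single neuron markers did not all follow that median: in uncorrected CPM 6 of the 14 (Rbfox3, Tubb3, Nefm, Nefh, Syn1 and Slc17a7) were lower in every forskolin library, library 6 included, and these were the 6 richest in transcript G+C of the list (56.6 to 58.6%). Rbfox3, which encodes the nuclear antigen NeuN, had 69.2, 84.5 and 80.2 CPM with DMSO and 37.8, 42.8 and 47.2 CPM with forskolin, and was the 1 marker called lower (log2 fold change -0.87, edgeR adjusted p = 0.0392). The median log2 ratio of the microglia markers on the corrected scale was 4.54 and 5.39 in libraries 4 and 5 and 0.19 in library 6, against -0.40 to 0.17 in the DMSO libraries. Libraries 4 and 5 combined lower neuron markers with the larger corrected differences of 7 of the 8 genes; the part of the neuron markers in those libraries was not tested. Without library 6 the log2 fold changes ran from -1.85 (Foxo6) to -1.14 (Map3k10), and with the GC trend removed as well from -1.26 (Ly6h) to -0.52 (Map3k10).

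**Figure D4:**
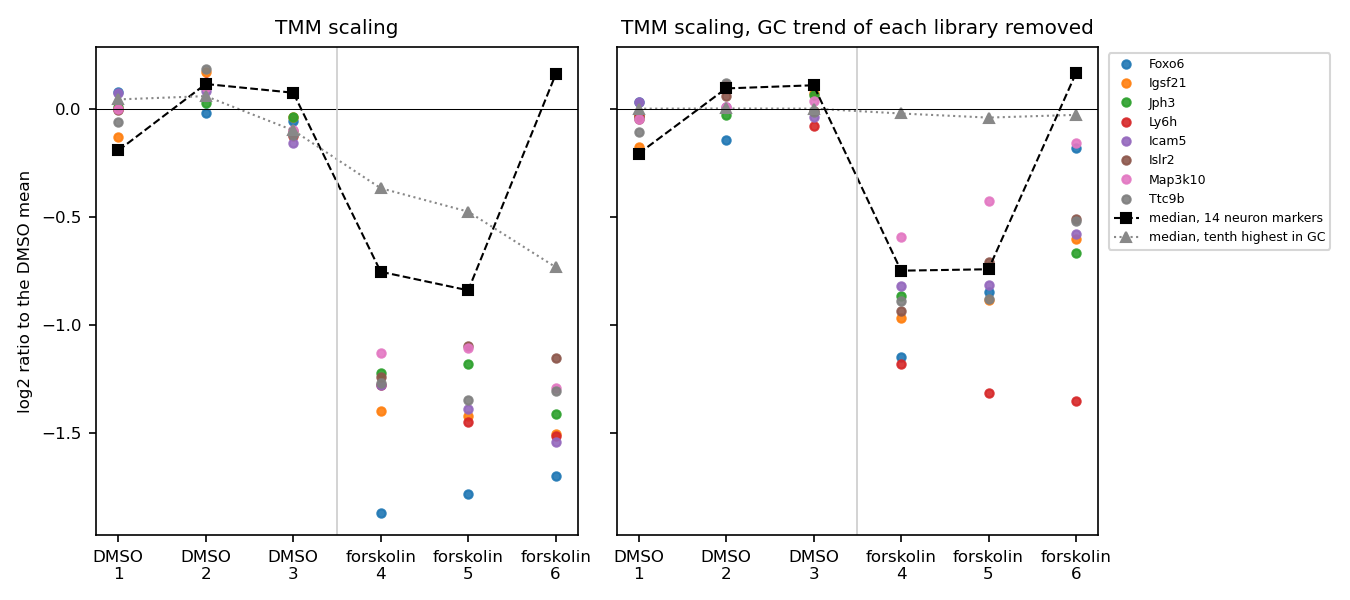
Log2 ratio to the DMSO mean (vertical axis) in each library for the 8 genes (coloured points), the median of the 14 neuron markers (black squares) and the median of the 10% of genes highest in G+C (grey triangles), before (left) and after (right) removal of each library's GC trend. The grey medians move to about 0 on the right. Each of the 8 genes stays below its own DMSO points, though Foxo6 in library 6 only by little. Library 6 becomes the highest of the forskolin libraries for all 8 genes but Ly6h.

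Relatives of the 8 genes were listed by family, with earlier results of these data known, and were not part of the rule that chose the 8. Of 26 listed relatives 23 were tested, and edgeR's quasi-likelihood test with Benjamini-Hochberg adjustment over all genes called 2 lower and 0 higher; over the whole table it called 217 of 16233 genes lower (1.34%) and 28 higher (0.172%). DESeq2 called 6.03% of all genes lower and 4.9% higher. By edgeR 4 of the 23 relatives (Jph4, Igsf8, Icam4 and Map3k12) had p-values below 0.05 before adjustment, as did 3619 of the 16233 genes tested, a larger share. The median log2 fold change of the 23 was -0.23, against 0.02 over all tested genes.

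Jph4, the other junctophilin of neurons, fell from 142 ± 5.98 to 75.3 ± 8.72 CPM (SD, n = 3), a change of -0.92 ± 0.12 (SE) on the log2 scale with an edgeR adjusted p of 0.0314, lower in 3 of 3 forskolin libraries, and its transcript G+C (60.3%) was close to that of Jph3. Jph1, with 46.7% G+C, had 17.8 ± 1.51 and 17.0 ± 1.36 CPM (adjusted p = 0.778 by edgeR). Jph2, the cardiac junctophilin, held at most 8 counts in a library and was not tested. Igsf8, an immunoglobulin superfamily partner of tetraspanins with 58.4% G+C, fell from 175 ± 10.4 to 93.8 ± 12.3 CPM, or -0.90 ± 0.13 (SE) in log2 terms (edgeR adjusted p = 0.0383). Igsf9 (-0.23), Igsf9b (-0.27) and Igsf11 (0.52) had edgeR adjusted p-values of 0.582, 0.308 and 0.302. The other FOXO factors, all less rich in G+C than Foxo6, had log2 fold changes of -0.09 (Foxo1), 0.10 (Foxo3) and -0.23 (Foxo4), with edgeR adjusted p-values of 0.649, 0.787 and 0.666.

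In the ICAM family, Icam4 lay lower in every forskolin library at a low level, 1.23 ± 0.0678 against 0.562 ± 0.0333 CPM, and missed the threshold (log2 fold change -1.12, edgeR adjusted p = 0.0855). Icam1, the leukocyte adhesion molecule, had a log2 fold change of 1.16 ± 0.61 (SE) with overlapping groups (edgeR adjusted p = 0.304), and Icam2 held at most 2 counts in a library. Islr, whose annotation overlaps Islr2, had 70.7, 56.7 and 46.4 CPM with DMSO and 84.5, 69.3 and 32.7 CPM with forskolin, a pattern unlike that of Islr2 (log2 fold change 0.10, edgeR adjusted p = 0.880). The LY6 relatives Lynx1 (-0.25), Ly6e (-0.11), Lypd1 (-0.47), Lypd6 (-0.20) and Lypd6b (-0.36) had edgeR adjusted p-values from 0.349 to 0.844. Among the kinases related to Map3k10, Map3k9 (-0.44), Map3k11 (-0.35), Map3k12 (-0.39) and Map3k13 (-0.27) had edgeR adjusted p-values from 0.189 to 0.600. Map3k11 (MLK3), with 61.3% G+C, had 16.9 to 20.1 CPM with DMSO, 19.7 and 16.8 CPM in libraries 4 and 5, and 6.69 CPM in library 6. Map3k21 was not analysed here. Ttc9 (-0.07) and Ttc9c (0.17) had edgeR adjusted p-values of 0.740 and 0.368.

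**Figure D5:**
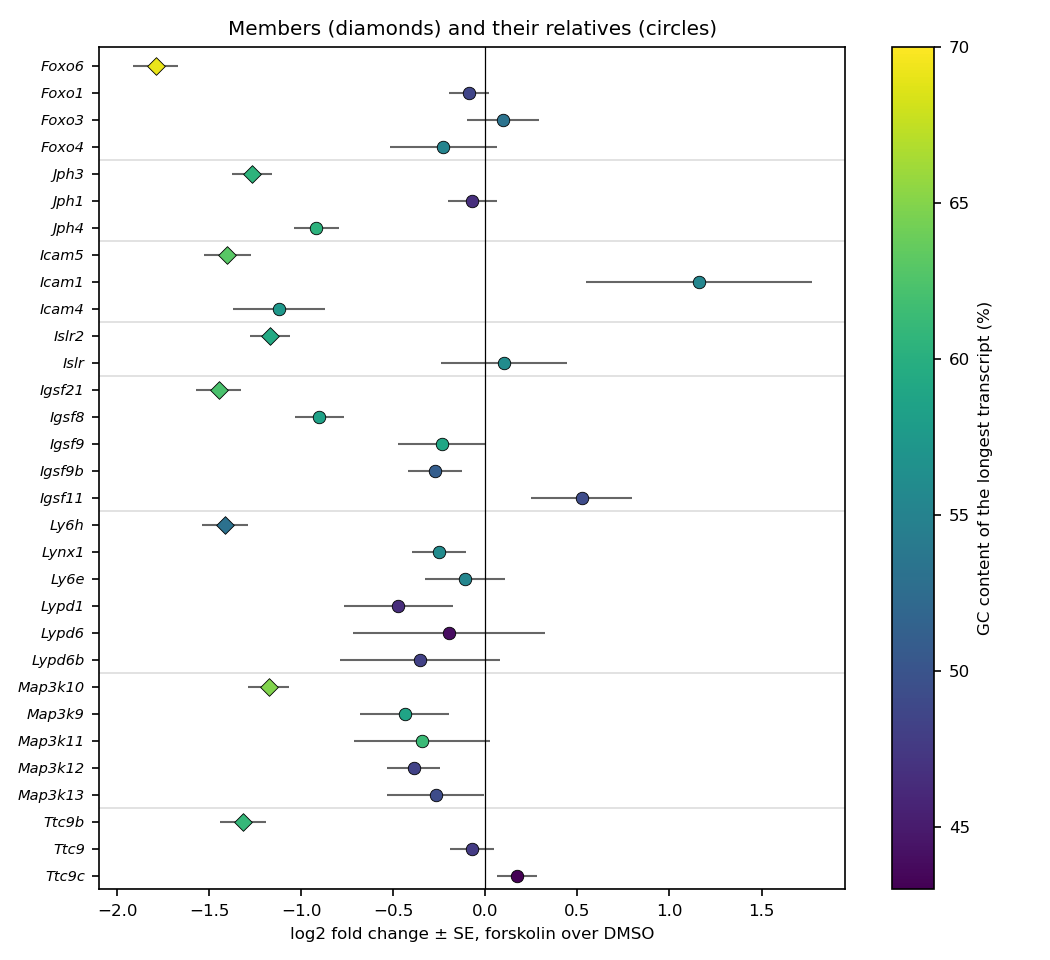
Log2 fold change ± SE of forskolin over DMSO (horizontal axis) for the 8 genes (diamonds) and their tested relatives (circles), grouped by family and coloured by the G+C share of the longest transcript. The diamond is the lowest in fold change of every family, and the 8 genes were chosen for being low. In every family but that of Ly6h the diamond is also the richest in G+C, with Jph4 close to Jph3. Ly6h (53.1%) has less transcript G+C than Lynx1 (55.9%) and Ly6e (55.4%), though more G+C in the coding sequence (62.7% against 57.5% and 53.9%). Jph4 and Igsf8 are the relatives that passed the test.

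Known partners of these proteins gave 2 calls lower and 0 higher among 39 tested of 43 listed, with 10 below 0.05 before adjustment, a share close to that of all genes (3619 of 16233). Their median log2 fold change was -0.10. Nrxn2, the neurexin that binds Igsf21, fell from 370, 393 and 335 CPM with DMSO to 176, 170 and 169 CPM with forskolin, a log2 fold change of -1.10 ± 0.12 (SE) (edgeR adjusted p = 0.0232). Its transcript G+C was 62.4%, whereas Nrxn3, with 47.5%, was not called (0.07 on the log2 scale, adjusted p = 0.876 by edgeR). Mapk8ip1 (JIP1), a scaffold that holds mixed-lineage kinases and JNK together, fell from 362 ± 23.4 to 199 ± 11 CPM (SD, n = 3; -0.86 ± 0.12 (SE), edgeR adjusted p = 0.0360). The other 10 genes of the JNK cascade were not called. They included Mapk8ip2 (-0.65, edgeR adjusted p = 0.0875) and the most abundant of the list, Mapk8ip3 (-0.50, edgeR adjusted p = 0.135), which both lay lower in every forskolin library.

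The remaining partner lists held no call by edgeR with all 6 libraries. The FOXO kinases (5 of 5 tested) had 4 negative log2 fold changes and 1 positive. Akt1 (-0.45) and Akt2 (-0.40), named after their values were seen, were below 0.05 before adjustment. The junctional calcium partners of junctophilins (6 of 6) had a median log2 fold change of -0.32, with Ryr2 at -0.21 (edgeR adjusted p = 0.650) and 0 genes below 0.05 before adjustment. The nicotinic receptors (4 of 6) had a median of -0.29, with Chrnb2 at -0.46 (edgeR adjusted p = 0.285) and 1 gene below that level, Chrna4 (-0.36), also named after its values were seen. The neurotrophin and GDNF receptors (3 of 4) had a median of -0.23, with Ntrk2 at 0.13 (edgeR adjusted p = 0.722) and 0 below it. The partners of Icam5 (7 of 8) had a median of 0.34, with Ezr at 0.13 (edgeR adjusted p = 0.761) and 1 below it. That gene was the leukocyte integrin Itgb2, named after its values were seen. It had 5.93 and 13.5 CPM in libraries 4 and 5 and 0.567 CPM in library 6, against 0.531 to 0.623 CPM with DMSO, so it followed the microglia markers. The edgeR fit without library 6 called 33.6% of all genes in either direction. Of the genes named in this paragraph, Akt1 (-0.41), Akt2 (-0.47), Ryr2 (-0.56), Chrnb2 (-0.79), Chrna4 (-0.43) and Itgb2 (4.03) were called in it. Ntrk2 and Ezr were not.

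With library 1, 2, 3, 4 or 5 left out edgeR called 0 genes in the whole table (1945 to 3216 below 0.05 before adjustment), so the calls of Jph4, Igsf8, Nrxn2 and Mapk8ip1 were lost with all others. Their log2 fold changes in those fits stayed near the full values, from -1.17 to -1.02 for Nrxn2, -0.93 to -0.85 for Jph4, -0.95 to -0.84 for Igsf8 and -0.90 to -0.78 for Mapk8ip1. Leaving out these libraries in turn took the edgeR adjusted p-value of Nrxn2 to 0.169, 0.249, 0.132, 0.123 and 0.185, and those of the other 3 genes to between 0.131 and 0.313; without library 6 all 4 stayed past the threshold, in a fit that called 17.1% of all genes lower. With the GC trend removed, their log2 fold changes went to -0.39 (Jph4), -0.51 (Igsf8), -0.45 (Nrxn2) and -0.38 (Mapk8ip1), with edgeR adjusted p-values from 0.208 to 0.447. With the trend removed and library 6 left out all 4 were called, in a fit that called 32.3% of all genes in either direction.

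The profiles most like those of the 8 genes were sought among 12450 protein-coding genes whose mean count was 50 or more. By Pearson correlation of log2 CPM over the 6 libraries with the mean profile of the 8, the closest were Psd, Ptp4a3, Nrxn2, Epn1 and Tesk1, with coefficients from 0.998 to 0.999. All 5 lay lower in every forskolin library, with log2 fold changes from -1.10 (Nrxn2) to -0.51 (Tesk1). Their transcripts held 58.4 to 62.6% G+C. The profile searched with is mainly the group difference by which the 8 genes were picked. The order of the 5 thus follows from the search and is given as a description. Of all tested genes 16.2% had this order, as did 56.9% of the protein-coding genes highest in G+C, the set described above. Of the candidates, 490 reached 0.95 and 60 reached 0.99.

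Promoters of the 8 genes were compared as far as RefSeq sequences on GRCm38.p6 were given, which was for 6 genes: Igsf21, Jph3, Icam5, Islr2, Map3k10 and Ttc9b. In the 250 bases before the start, G+C ran from 52.0% at a start of Islr2 to 70% at Jph3, against a median of 59.6% over 14651 promoters of tested genes. The full cAMP response element TGACGTCA, searched on both strands, was in none of them and in 2.48% of the promoters of tested genes. Its core TGACG, searched as TGACG or CGTCA and contained in the full element, was in 1 of the 6 genes, Map3k10, and in 25.2% of the promoters of tested genes. The Map3k10 promoter is shown because it holds this match, in capitals, whose first base lies 34 bases before the start; a match of letters is no evidence of a bound site.
Map3k10 promoter (chr7:27674582-27674831, minus strand): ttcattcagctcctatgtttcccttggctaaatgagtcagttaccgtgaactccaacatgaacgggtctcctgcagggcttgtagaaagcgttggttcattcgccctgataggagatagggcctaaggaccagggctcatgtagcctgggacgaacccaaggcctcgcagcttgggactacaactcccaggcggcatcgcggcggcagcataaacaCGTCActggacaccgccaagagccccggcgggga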

How the data were processed

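RNA from 6 cultures was measured by RNA-seq. The authors deposited estimated counts per gene symbol as whole numbers; the submitters' processing notes name Salmon, DESeq and GRCm38, and annotation, strand and bias settings are not given in the sources used here. The design had assumed plain counts; the values were already whole, so edgeR was run on them as deposited, without rounding. A deposited table of fold changes was not used, since it lists none of the 8 genes. Tools were edgeR 4.0.16, DESeq2 1.42.0 and limma 3.58.1, run in R 4.3.3. Genes passed filterByExpr (minimum count 10, minimum total count 15); TMM scaling and a model of group alone were used, with glmQLFTest and Benjamini-Hochberg adjustment over all tested genes at a threshold of 0.05. Log2 CPM used a prior count of 2. Standard errors were obtained from the fold change and the F statistic of each gene. G+C came from GENCODE M21, matched by symbol for 96.7% of gene rows; GC trends were loess fits (span 0.5) per library, entered as offsets. Scripts were tested on simulated data.

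The 8 genes, the gene lists and the rules were chosen with earlier results of these data known. Named genes were the 8, their listed relatives, listed partners past the threshold or most abundant by DMSO mean in their list, the nearest unchanged gene by GC and abundance, the 5 most alike profiles and Fos; Nr4a1, also listed as a check of the treatment, had an edgeR log2 fold change of 2.20 (adjusted p = 0.0652). Some listed partners are not reported here. Library totals were at least 28342764 counts; 3 libraries a group and, for the less abundant of the 8 genes, counting error limit the precision. Alternatives were another tool, scaling, filter or GC measure, and leaving out each library.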

Additional observations from a re-analysis of the deposited data

How the results depend on the processing

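The log2 fold changes of the 8 genes stayed negative under all 17 alternatives. Their median, -1.36, went to -1.46 with library size alone, to -0.74 with the GC trend removed, to -0.74 with GC and length trends removed, to -0.83 with the coding GC trend removed (chosen after seeing the data) and to -0.87 with the GC trend removed and without forskolin replicate 6. Leaving out each library in turn gave medians from -1.43 to -1.29. The median gap between a gene and its like genes, -0.64, ran from -0.70 (GC window of 4 points) and -0.71 (coding GC) to -0.58 (GC window of 1 point).

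Counts of calls moved far more. Against 28 higher and 217 lower genes, DESeq2 called 796 and 979, RLE factors left 113 lower, upper-quartile factors 83 lower, and no low-count filter gave 46 higher. Leaving out each library in turn gave 0 to 2796 higher and 0 to 2902 lower: 0 without any of libraries 1 to 5 by edgeR, where 1945 to 3216 genes were below 0.05 before adjustment, and the high values without library 6. With GC, GC and length, or coding GC trends removed edgeR called 0 higher and 0 lower (1952, 1996 and 2027 genes at an unadjusted p-value under 0.05); with the GC trend removed and without forskolin replicate 6 it called 2700 and 2774. The cause was not tested. Among relatives and partners, 0 higher and 4 lower became 1 and 9 with DESeq2, 2 lower with upper-quartile factors, 0 lower with each GC correction on 6 libraries, 10 and 27 with the GC trend removed and without forskolin replicate 6, and 0 to 7 higher and 0 to 26 lower over the fits that left out each library.

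No paired analysis was possible because replicate numbers run on from DMSO (1 to 3) to forskolin (4 to 6) and none is shared.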
